A study of Mus musculus with 4 samples.

Results

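Complement genes were followed in vascular smooth muscle cells (VSMCs) of the mouse arterial wall. The genes were C3, C4b, C1ra, C1s1, Cfb, Serping1 and C7, listed by name with earlier results of these data known. Their values were read in every cell of 4 single-cell RNA-seq libraries. They are 7 of the 34469 genes listed in these libraries. C7 was not analysed in the ligation libraries, where 6 of the genes were measured. In the first experiment, aortic and carotid plaques had been micro-dissected from Myh11-CreERt2/Confetti/ApoE-/- mice (ApoE-/- below) and from Myh11-CreERt2/Confetti/Sm22a-Trf2T188A/ApoE-/- mice (Trf2T188A/ApoE-/-), both on a C57Bl/6 background, as were the ligated mice, and fed a high fat diet after tamoxifen. Both plaque groups therefore lack ApoE and carry the Confetti reporter, which tamoxifen switches on in Myh11-expressing cells and their progeny. In the second, left common carotid arteries of male wild type control mice and of SM22a-TRF2T188A mice (Trf2T188A below) had been taken 28 days after ligation, without the adventitia. The mutant TRF2, a changed form of a protein that protects chromosome ends, is driven by a minimal Sm22a promoter, which is restricted to arterial VSMCs and which the study describes as staying active when these cells switch phenotype. Each genotype is 1 library in each experiment, and the number of mice behind a library is not given.

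Complement is a set of blood and tissue proteins that tag cells and debris for removal. In the classical pathway the proteases C1r and C1s, bound to C1q, cut C4, and the enzyme formed cuts C3, the protein on which all pathways meet. Factor B (Cfb) builds the C3-cutting enzyme of the alternative pathway, C7 is part of the terminal complex that inserts into membranes, and Serping1 encodes the C1 inhibitor, which blocks C1r and C1s. The liver makes most of the circulating protein, and cells of connective tissue also transcribe several of these genes, more so in inflammation.

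The main pattern was in plaques. C3 was at 0.186 UMIs per 10000 in contractile-like cells of ApoE-/- plaques and at 14.9 in acute-phase-like cells, a 79.9-fold higher level, and at 0.405 and 14.7 in Trf2T188A/ApoE-/- plaques, 36.5-fold higher. C4b, C1ra, C1s1 and Cfb also had higher levels in the acute-phase-like class in both libraries. Serping1 had its lowest level in chondrocyte-like cells, which held C3. Between the genotypes, acute-phase-like cells had about the same summed level of C3, though the median cell had 7.02 in ApoE-/- and 11.4 in Trf2T188A/ApoE-/-. Chondrocyte-like cells of Trf2T188A/ApoE-/- plaques had 6.22 UMIs of C3 per 10000 against 2.25. In ligated arteries C1ra, C1s1 and Serping1 were found in every smooth muscle class, C3 was low, and C4b in remodelling-like cells was at 0.262 in Trf2T188A against 0.119 in control.

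A level is the number of unique molecular identifiers (UMIs, each 1 RNA molecule) of a gene summed over the cells of a class and given per 10000 UMIs of that class. Brackets hold exact Poisson 95% intervals, which hold only counting error, not the variation among cells, mice or libraries. Where few cells hold many of a gene's UMIs, these intervals are too narrow, and their overlap or lack of it concerns counts only. With 1 library a genotype there is no replicate spread, no test across samples was possible, and every difference between genotypes compares 2 libraries. In this tissue a lower level cannot be told apart from a smaller share of the cells that make the gene's RNA, even within a class. UMIs were compared between classes and genotypes, not between genes, since the values are not per length. C1ra, C1s1 and C4b each have a near-identical copy in the mouse genome (C1rb, C1s2 and C4a), and reads that fit both could be lost or split, so their levels are uncertain.

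The plaque libraries held 1502 ApoE-/- and 929 Trf2T188A/ApoE-/- cells with medians of 22765.5 and 24377 UMIs, and the ligation libraries 4967 control and 5392 Trf2T188A cells with medians of 8631 and 11153 UMIs. In plaques the study kept Trf2T188A/ApoE-/- cells down to a lower number of genes than ApoE-/- cells. The fewest genes in a cell were 1531 in ApoE-/- and 1056 in Trf2T188A/ApoE-/-, so this filter differs along with the genotype. Terf2, the gene of TRF2, was at 0.183 in both plaque libraries and at 0.179 and 0.168 in the control and Trf2T188A ligation libraries, and its own and transgene RNA are not separated, so it does not check the labels. A Confetti reporter UMI was found in 83.6% and 85.4% of plaque cells. Classes are clusters formed here without the complement genes and named from marker lists, most of which the study drew from these libraries. A plaque class called contractile-like had Myh11 at 43.3 and 41.1 per 10000, against 5.32 and 4.99 in the acute-phase-like class, named from Lcn2, Cp, Serpina3n, Saa3 and related genes, in which 75.7% and 84.0% of cells held a reporter UMI. In the chondrocyte-like class, named from cartilage genes such as Col2a1 and Chad, Myh11 was at 0.28 and 0.243 and the reporter was found in 61.7% and 81.0% of cells. A class of 21 ApoE-/- cells and 1 Trf2T188A/ApoE-/- cell was fibroblast-like, with the reporter in 8 of the 21, and 13 ApoE-/- cells that led with Igfbp3 and Gpx3 held no reporter UMI. These 2 classes, and the endothelial-like and immune-like classes of the ligation libraries, were not counted as smooth muscle. The plaque libraries shared 0 cell barcodes and the ligation libraries 10.

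C3 encodes the central complement protein, and its gene lies on chromosome 17 (GRCm38, chr17:57203970-57228136, minus strand). Its upstream sequence is shown because C3 carries the main difference between smooth muscle classes. The 250 bases before its start (RefSeq, GRCm38.p6, chr17:57228137-57228386, minus strand) are printed 5′ to 3′ with motif matches in capitals.

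C3: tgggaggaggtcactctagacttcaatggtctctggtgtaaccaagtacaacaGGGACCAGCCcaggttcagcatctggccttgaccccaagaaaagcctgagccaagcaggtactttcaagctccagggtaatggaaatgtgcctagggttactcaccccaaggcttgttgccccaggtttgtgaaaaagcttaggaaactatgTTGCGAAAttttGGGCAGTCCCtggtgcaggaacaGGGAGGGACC

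Matches were sought on both strands for 4 short motifs of factors known to act in acute-phase gene control. The letters TTGCNNAA (C/EBP) were matched by TTGCGAAA at 45 to 38 bases before the start. The NF-kB letters, GGGA, any 4 bases and CC, were matched 3 times, at 197 to 188, at 33 to 24 on the opposite strand and at 10 to 1 bases before the start. Of 32851 such upstream windows in the mouse genome, 9.56% hold the C/EBP letters and 17.6% the NF-kB letters. The matches do not overlap. No match to TTCNNNGAA (STAT, in 7.02% of windows) or to the IRF letters (GAAA, any 2 bases and GAAA, in 2.98%) was in this window. A match describes letters only and is not evidence that a factor binds.

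Across plaque classes the order of C3 was alike in both genotypes at its ends. Low levels were found in contractile-like cells, with 0.186 (0.162–0.212, from 227 UMIs) in ApoE-/- and 0.405 (0.355–0.459, from 241 UMIs) in Trf2T188A/ApoE-/-. Pln-Sncg-like cells, a class led by the phospholamban and gamma-synuclein genes, had 0.391 and 0.291, and an unnamed cluster with Kcnab1 among its leading genes (Kcnab1 cluster) had 0.464 and 0.429. The intervals of these 3 classes overlapped in Trf2T188A/ApoE-/- plaques, and in ApoE-/- plaques contractile-like cells were below the others. Adamtsl1-Mdga2-like cells had 0.527 (0.385–0.706) and 1.58 (1.35–1.83). Immediate-early-like cells, with genes such as Fos and Atf3, had 1.35 (1.23–1.47) and 2.42 (2.24–2.61). Itih4-Wnt16-like cells had 1.65 (1.54–1.77) and 3.29 (3.11–3.47). Fibromyocyte-like cells, which transcribe matrix genes such as Lum and Fn1, had 5.5 (5.32–5.69) and 4.86 (4.65–5.09), and chondrocyte-like cells 2.25 (2.09–2.42) and 6.22 (5.91–6.55), so the order of these classes differed between the libraries. Acute-phase-like cells had 14.9 (14.4–15.3, from 4357 UMIs) and 14.7 (14.3–15.2, from 3843 UMIs), above every other class in both libraries. Over contractile-like cells of the same library, the C3 level was 29.6- and 12.0-fold higher in fibromyocyte-like cells, 12.1- and 15.4-fold in chondrocyte-like cells and 8.89- and 8.13-fold in Itih4-Wnt16-like cells. All these ratios share the contractile-like cells of their library as reference.

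**Figure D1:**
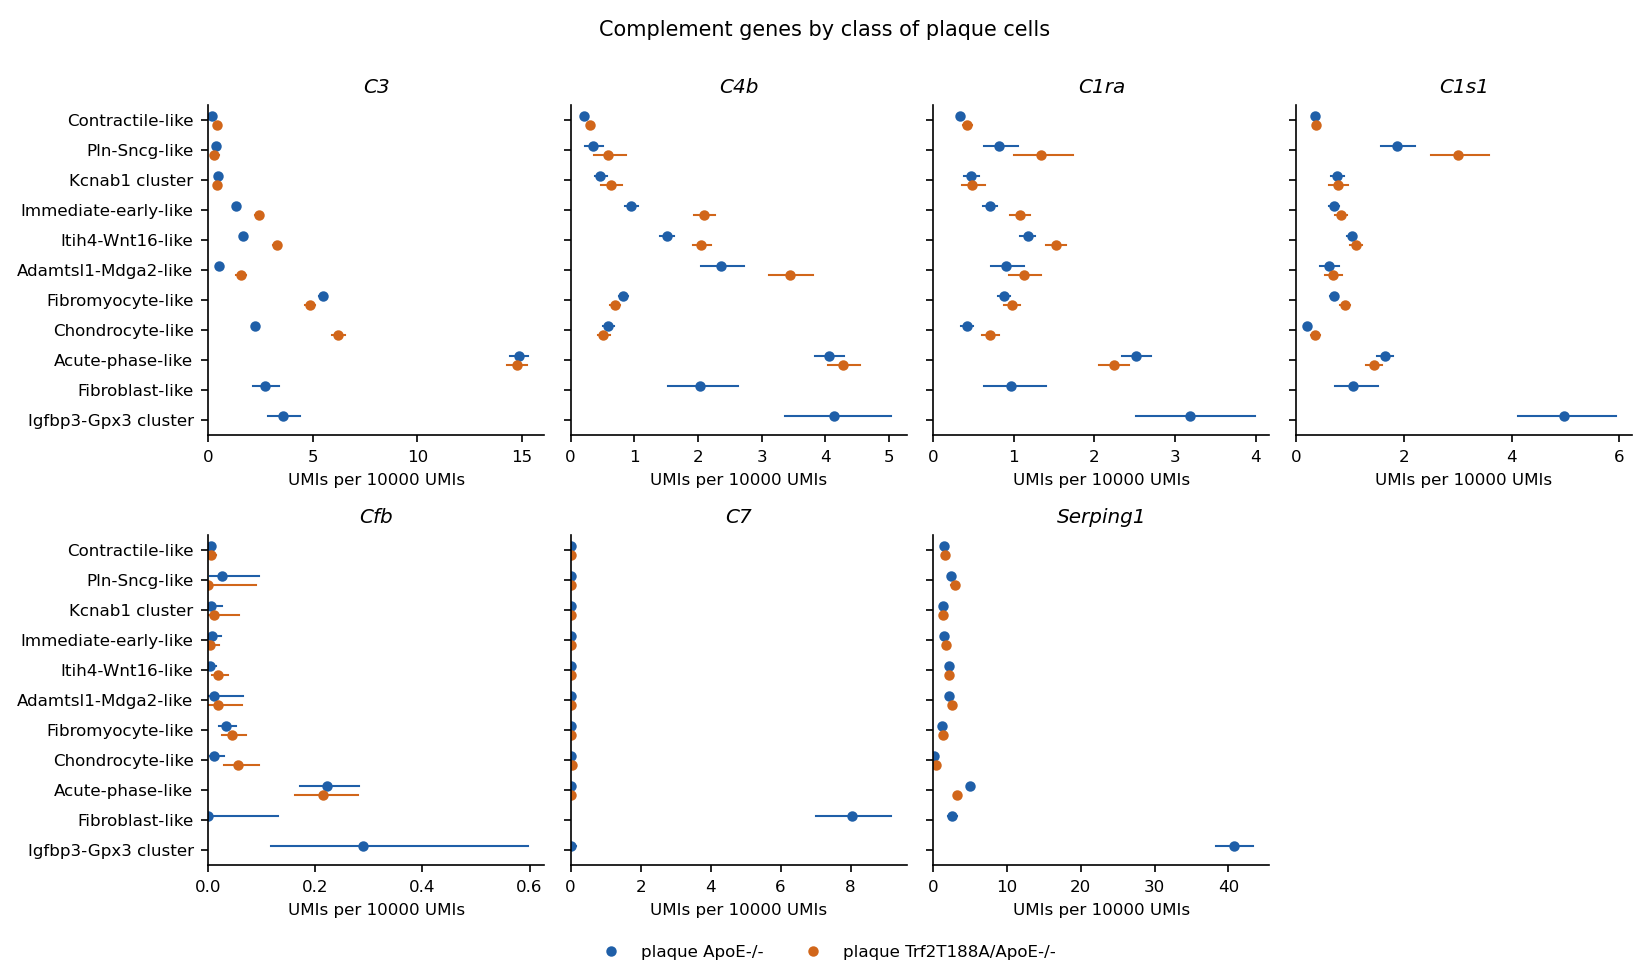
Levels of the 7 complement genes in plaque cells, as UMIs per 10000 UMIs on linear axes that differ between genes, by class and genotype; points are 1 library each and lines are exact Poisson 95% intervals. C3 is highest in acute-phase-like cells at 14.9 and 14.7, C7 stands almost only in the fibroblast-like class at 8.03, and Serping1 is highest in the Igfbp3-Gpx3 cluster at 40.8.

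C3 RNA was spread unevenly over cells. Acute-phase-like cells were 7.12% of ApoE-/- cells and held 41.6% of that library's C3 UMIs, and 8.72% of Trf2T188A/ApoE-/- cells held 39.8%. The tenth of cells with the most C3 held 82.7% and 67.8% of it. The highest acute-phase-like cells had 264 and 201 C3 UMIs, while the median acute-phase-like cell had 7.02 and 11.4 per 10000 and the median contractile-like cell had 0 in both. With every cell thinned to 8000 UMIs, C3 was found in 74.8% (65.2–82.8) and 85.3% (75.3–92.4) of acute-phase-like cells and in 9.57% (7.21–12.4) and 11.9% (7.99–16.8) of contractile-like cells, with exact binomial intervals. No plaque class is known to lack C3, so the share that free RNA in the droplets gives was not measured. The contractile-like class joined 2 clusters, and C3 was at 0.241 and 0.514 in the first and at 0.107 and 0.158 in the second.

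C1ra and C1s1 encode the proteases that start the classical pathway and are neighbours on chromosome 6, at chr6:124512405-124523443 on the plus strand and chr6:124530345-124542359 on the minus strand. C1ra was at 0.335 and 0.425 in contractile-like cells and at 2.52 and 2.24 in acute-phase-like cells, 7.51- and 5.27-fold higher. Itih4-Wnt16-like cells followed with 1.17 and 1.52, and fibromyocyte-like cells had 0.878 and 0.975. C1s1 had another order. Its highest smooth muscle level was in Pln-Sncg-like cells, at 1.88 (1.58–2.21) and 3.01 (2.5–3.59), above acute-phase-like cells at 1.65 and 1.45 and contractile-like cells at 0.362 and 0.379. In ApoE-/- plaques the intervals of Pln-Sncg-like and acute-phase-like cells overlapped, and in Trf2T188A/ApoE-/- plaques they did not. Of the 124 C1s1 UMIs of Trf2T188A/ApoE-/- Pln-Sncg-like cells, 35 were in 1 cell. The lowest level of C1s1 was in chondrocyte-like cells, at 0.203 and 0.357. In Trf2T188A/ApoE-/- plaques this lay within counting error of contractile-like cells. The window upstream of C1s1 (RefSeq start 1, chr6:124542360-124542609, minus strand) is given beside that of C3 because these genes are both high in acute-phase-like cells. It holds 1 match in capitals, to the C/EBP letters on the opposite strand, 242 to 235 bases before the start. The window of a second C1s1 start holds 1 match to the NF-kB letters instead. No motif matched in the window of C1ra (chr6:124512371-124512620, plus strand). That window precedes a RefSeq start inside the gene as placed above, so most of it is not upstream of the position given here.

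C1s1: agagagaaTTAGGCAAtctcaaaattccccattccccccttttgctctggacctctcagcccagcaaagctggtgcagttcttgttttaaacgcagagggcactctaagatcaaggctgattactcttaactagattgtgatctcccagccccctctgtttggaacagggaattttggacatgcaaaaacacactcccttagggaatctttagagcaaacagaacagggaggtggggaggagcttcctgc

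C4b encodes complement component C4 (chr17:34728380-34743882, minus strand), in the same stretch of chromosome 17 as Cfb. Its level was 0.206 and 0.301 in contractile-like cells and 4.06 (3.83–4.3) and 4.29 (4.04–4.55) in acute-phase-like cells, 19.7- and 14.3-fold higher. Next came the Adamtsl1-Mdga2-like class of 42 and 40 cells, with 2.37 (2.05–2.72) and 3.45 (3.11–3.81), 11.5-fold higher in both libraries. Few cells carried this, since 1 cell held 44 of the 202 and 119 of the 389 C4b UMIs, 3 and 4 cells held 50% of them, and the median cell had 0.432 and 1.29 per 10000. Itih4-Wnt16-like cells had C4b at 1.51 and 2.06, with medians of 0.831 and 1.16. Fibromyocyte-like cells had C4b at 0.827 and 0.692, and chondrocyte-like cells had 0.588 and 0.515. These are below the acute-phase-like and Adamtsl1-Mdga2-like levels in both libraries.

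Cfb, the factor B gene (chr17:34856374-34862518, minus strand), was sparse. It had 113 UMIs in all ApoE-/- cells and 100 in all Trf2T188A/ApoE-/- cells. Acute-phase-like cells held 57.5% and 56.0% of these, with levels of 0.222 from 65 UMIs and 0.215 from 56 UMIs. Fibromyocyte-like cells had 0.0337 and 0.0437. Contractile-like cells of ApoE-/- plaques had 0.00573 from 7 UMIs.

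C7, of the terminal complex (chr15:4988762-5063740, minus strand), was nearly absent from smooth muscle classes. Of its 234 UMIs in ApoE-/- plaques, 226 were in the 21 fibroblast-like cells, which is 96.6% of them and a level of 8.03, and 11 of the 21 cells held a UMI. In Trf2T188A/ApoE-/- plaques, which had 1 such cell, C7 had 21 UMIs, of which 11 were in chondrocyte-like cells and 6 in acute-phase-like cells. Of those 11, 9 were in 1 cell. The window upstream of C7 (chr15:5063774-5064023, minus strand) is printed for contrast with C3. It holds 1 match to the STAT letters, at 164 to 156 bases before the start, and none to the C/EBP or NF-kB letters.

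C7: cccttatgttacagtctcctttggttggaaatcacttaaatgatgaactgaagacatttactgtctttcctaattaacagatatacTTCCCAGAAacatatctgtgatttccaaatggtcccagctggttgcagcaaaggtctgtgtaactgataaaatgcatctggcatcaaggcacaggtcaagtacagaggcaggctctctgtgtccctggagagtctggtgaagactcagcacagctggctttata

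Serping1, the gene of the C1 inhibitor (chr2:84765387-84775444, minus strand), was found in every smooth muscle class, with a low in chondrocyte-like cells. It was at 1.39 and 1.66 in contractile-like cells, 2.34 and 2.96 in Pln-Sncg-like cells, 2.17 and 2.2 in Itih4-Wnt16-like cells and 1.22 and 1.3 in fibromyocyte-like cells. Acute-phase-like cells had 4.99 (4.74–5.25) and 3.28 (3.07–3.51), 3.59- and 1.98-fold higher than contractile-like cells. Chondrocyte-like cells had 0.125 from 42 UMIs and 0.383 from 90 UMIs, that is 0.0902 and 0.231 of the contractile-like level. Of those 90 UMIs, 55 were in 1 cell. The C3 of this class was above the contractile-like level by 12.1- and 15.4-fold, so the inhibitor and C3 lay on opposite sides of contractile-like cells. Outside smooth muscle, the 13 cells of the Igfbp3-Gpx3 cluster had Serping1 at 40.8 and held 984 of the 7305 Serping1 UMIs of ApoE-/- plaques, 13.5%. They also had C1s1 at 4.97 and C4b at 4.14.

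A gene was counted as higher in a class when its level was at least 2-fold that of contractile-like cells in each of the libraries, among genes found in at least 10% of the cells. Since the complement genes were chosen with earlier results of these data known, the counts here and below are descriptions. In acute-phase-like cells 4 of 5 complement genes were higher (C3, C4b, C1ra and C1s1), and 12.2% of all genes tested were. Cfb also passed 2-fold there but is not counted, because it reached 10% of cells in this class alone and so had to differ. The shares of all genes, here and below, still include genes that reached 10% of cells on the higher side alone. C7 did not reach 10% in any smooth muscle class. In Itih4-Wnt16-like cells it was 4 of 5 against 2.27% of all genes, in fibromyocyte-like cells 3 of 5 against 11.2%, in Adamtsl1-Mdga2-like cells 3 of 5 against 7.95% and in immediate-early-like cells 3 of 5 against 6.43%. In the Kcnab1 cluster 2 of 5 were higher (C4b and C1s1) against 1.41%, and in Pln-Sncg-like cells 2 of 5 (C1ra and C1s1) against 3.46%. In chondrocyte-like cells C3 alone was higher, 1 of 5 against 11.7%, and Serping1 alone was lower, 1 of 5 against 16.9%. No complement gene was lower past 2-fold in any other smooth muscle class. The share of all genes lower there was 4.29% in acute-phase-like, 7.1% in fibromyocyte-like, 0.396% in immediate-early-like and 0.413% in Itih4-Wnt16-like cells and 0.49% in the Kcnab1 cluster. It was 1.6% in Pln-Sncg-like and 2.06% in Adamtsl1-Mdga2-like cells. In all, 22 of these comparisons were higher, or 23 with Cfb, and 1 was lower, and the classes share 1 reference. Markers of other cells moved with several of these classes. In acute-phase-like cells the summed fibroblast list was at 17.3 and 13.0, against 7.63 and 7.80 in contractile-like cells, with all 10 markers found. The immune list was at 1.05 and 1.31 against 0.0925 and 0.129, with 3 of 10 markers at 0 in each library (Fcer1g, Cd52 and Laptm5, and Lcp1, Cd52 and Laptm5). The endothelial list was at 1.78 and 1.70 against 0.441 and 0.43, with Cdh5 and Cldn5 at 0 in both. In Itih4-Wnt16-like cells the immune list was at 0.641 and 1.001, with 3 and 0 of 10 markers at 0, and the fibroblast list at 6.11 and 6.97. In fibromyocyte-like cells they were at 0.768 and 0.527, with 3 and 2 of 10 at 0, and at 11.03 and 12.2. In Adamtsl1-Mdga2-like cells they were at 0.188 and 0.337, with 5 and 4 of 10 at 0, and at 9.30 and 10.1. The part of these cells in the complement levels was not tested.

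The genes were also found together in single cells. At 8000 UMIs a cell, 80.6% and 88.0% of acute-phase-like cells held a UMI of 3 or more of the 7 genes, against 11.4% and 16.3% of contractile-like cells. Itih4-Wnt16-like cells had 56.6% and 61.8%, fibromyocyte-like cells 46.5% and 46.0%, and chondrocyte-like cells 8.97% and 24.6%. Within the acute-phase-like class, however, amounts were only loosely related. Spearman's rho of C3 with C4b was 0.46 over 103 ApoE-/- cells and 0.05 over 75 Trf2T188A/ApoE-/- cells, as a description over cells of 1 library at 1 depth.

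**Figure D2:**
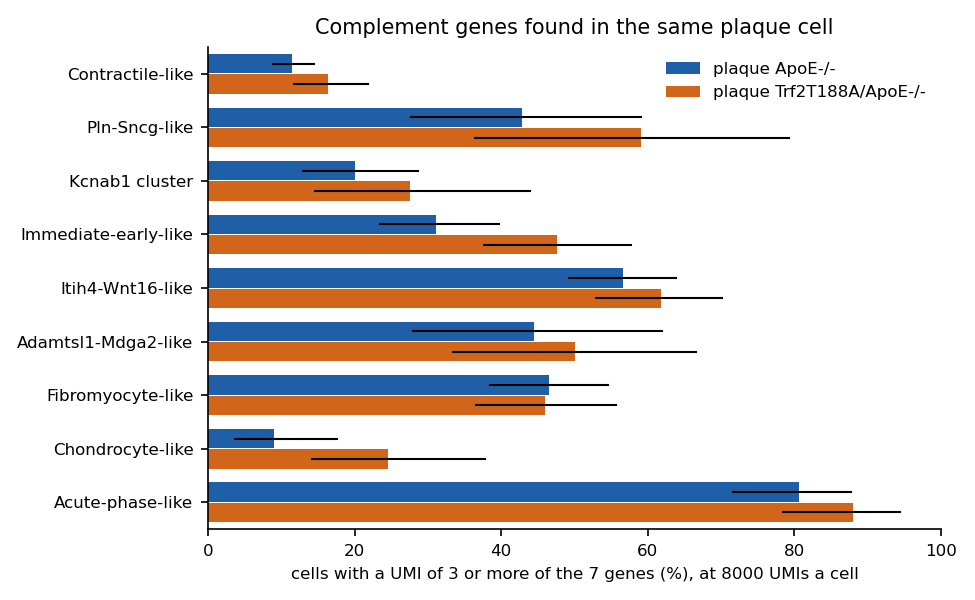
Percent of plaque cells in which 3 or more of the 7 complement genes had a UMI, with every cell thinned to 8000 UMIs, by class and genotype; bars are 1 library each and lines are exact binomial 95% intervals. Acute-phase-like cells lead at 80.6% and 88.0%, and contractile-like and chondrocyte-like cells are lowest.

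The genes most like each complement gene were those with the highest Pearson correlation of log2 levels over 19 plaque points, a point being 1 class in 1 library, among 13238 genes. For C3 these were Lum (r = 0.94), a proteoglycan of the matrix, Lrp1 and Vmp1. For C1ra they were Osmr, the oncostatin M receptor, Podn and Tnfrsf1a, and for C4b Egfr, Syt12 and Podn. Ptgir and Cep152 were among the 3 for C1s1, and Cfb was nearest to Kcnt1, Rtbdn and Cxcl5, Serping1 to Psme1, Isyna1 and Ccdc71l, and C7 to Angptl1, 6530403H02Rik and Gm20629. The list for C7 rests mostly on a single point, the ApoE-/- fibroblast-like class, which held 96.6% of the C7 UMIs of that library. No list of 3 held another complement gene. Among the complement genes r was 0.81 for C1ra with C4b, 0.77 for C1s1 with Serping1, 0.74 for C3 with Cfb, 0.72 for C1ra with C1s1 and 0.03 for C3 with Serping1. The points share libraries and cells, and these values are descriptions.

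Between the genotypes, the complement genes differed by class. Acute-phase-like cells had almost the same summed level of C3, with a log2 ratio of Trf2T188A/ApoE-/- over ApoE-/- of -0.01 (-0.07 to 0.05, an exact conditional binomial interval on UMIs, counting error only). The single cells were less alike, since the median cell had 7.02 in ApoE-/- and 11.4 in Trf2T188A/ApoE-/-. The lower quartiles were 0.605 and 4.32. Ratios of the summed levels in this class were 0.08 for C4b, -0.17 for C1ra, -0.18 for C1s1 and -0.04 for Cfb. Serping1 was lower there, with a log2 ratio of -0.60 (-0.73 to -0.48). It was 1 of 6 genes past 1.5-fold, in a class in which 8.52% of all genes tested were lower and 6.88% higher by that much, and the ratio was -0.15 in cells thinned to 8000 UMIs. Fibromyocyte-like cells had no complement gene past 1.5-fold (0 of 5 higher against 3.76% of all genes, 0 of 5 lower against 7.2%), with -0.18 for C3, -0.26 for C4b and 0.37 for C1s1. In the Kcnab1 cluster it was 0 of 5 in each direction, against 9.78% of all genes higher and 9.58% lower.

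Chondrocyte-like cells, 81 and 63 of them, had the most complement genes past 1.5-fold, 4 of 5 higher in Trf2T188A/ApoE-/- against 8.76% of all genes. C3 was at 2.25 (2.09–2.42, from 754 UMIs) and 6.22 (5.91–6.55, from 1462 UMIs), a log2 ratio of 1.47 (1.34 to 1.60). It was found in 39.7% (28.8–51.5) and 80.7% (68.1–90.0) of the cells at 8000 UMIs, and the median cell had 0.522 and 5.89 per 10000. One ApoE-/- cell held 182 of its 754 UMIs, and without the highest cell of each library the ratio was 1.77. In cells with a reporter UMI it was 1.15. C1ra was at 0.415 and 0.702 (log2 ratio 0.76, 0.42 to 1.10) and C1s1 at 0.203 and 0.357 (0.82, 0.34 to 1.30). In cells with a reporter UMI the C1ra and C1s1 ratios were 0.48 and 0.58, under 1.5-fold. Serping1 had a ratio of 1.61 (1.07 to 2.18), and 0.59 without the cell that held 55 of its UMIs. C4b did not pass, at -0.19. The libraries differ in this class in other ways. Besides the reporter shares of 61.7% and 81.0%, the summed fibroblast list was at 13.4 and 20.2 and the immune list at 0.436 and 0.587, and the part of this was not tested.

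**Figure D3:**
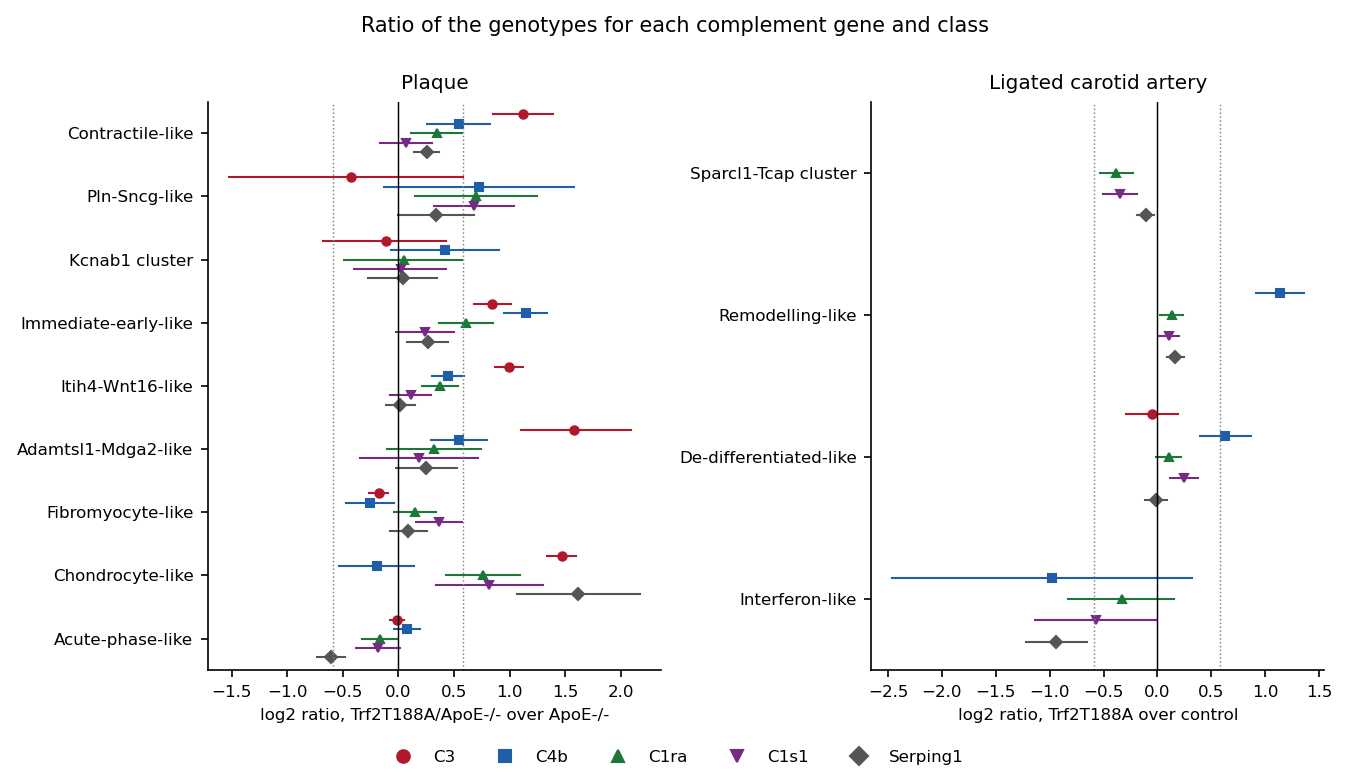
Log2 ratio of the mutant over the control level of 5 complement genes by class, in plaques and in ligated carotid arteries, for genes with a UMI in 10% or more of a library's cells; points compare 2 libraries, lines are exact conditional binomial 95% intervals and dotted lines mark 1.5-fold. In plaques C3 stands right of the line in 5 classes and near 0 in acute-phase-like cells, and C4b stands right of it in remodelling-like cells of ligated arteries at 1.14.

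C3 was also higher in Trf2T188A/ApoE-/- plaques in other classes. In contractile-like cells its log2 ratio was 1.12 (0.85 to 1.39), the 1 of 5 genes past 1.5-fold in a class in which 0.908% of all genes were higher. A single Trf2T188A/ApoE-/- cell held 94 of the 241 C3 UMIs of this class, 39.0%, and without the highest cell of each library the ratio was 0.55, below 1.5-fold. The other ratios there were 0.54 for C4b, 0.34 for C1ra, 0.07 for C1s1 and 0.25 for Serping1. In Itih4-Wnt16-like cells the C3 ratio was 0.99 (0.87 to 1.12), 1 of 5 genes against 3.41% of all genes, and in Adamtsl1-Mdga2-like cells it was 1.58 (1.10 to 2.09), 1 of 5 against 15.7%. In the latter class 1 cell held 19 of the 45 and 55 of the 178 C3 UMIs, and 2 and 3 cells held 50%. Its ratio was 1.87 without the highest cell of each library and 0.57 by the difference of mean logs, under 1.5-fold. In immediate-early-like cells 3 of 5 were higher against 4.51%, with 0.84 for C3, 1.15 for C4b and 0.61 for C1ra. This class had medians of 20869.5 and 11905 UMIs in the libraries, its immune list was at 0.110 and 0.578, and its C3 ratio turned to -0.80 when clusters were formed at the lower resolution. The part of the study's unequal gene limits in these medians and ratios was not tested. In Pln-Sncg-like cells, 47 and 23 in number, 3 of 5 genes were higher against 18.6% of all genes. Ratios were 0.73 (-0.13 to 1.58) for C4b, 0.70 for C1ra and 0.68 for C1s1, and C4b was at -0.55 in thinned cells. Among the Trf2T188A/ApoE-/- cells of this class, 1 cell held 9 of the 24 C4b UMIs and 1 held 35 of the 124 C1s1 UMIs. The lowest alternatives were 0.29 for C1ra and 0.34 for C1s1, under 1.5-fold. Over all plaque cells C3 was at 2.76 and 4.01, under 1.5-fold, as were the other genes tested (0 of 5 against 0.352% of all genes higher and 0.295% lower). No complement gene was lower by 1.5-fold in contractile-like, immediate-early-like, Itih4-Wnt16-like or Adamtsl1-Mdga2-like cells, where 1.62%, 5.56%, 4.21% and 13.6% of all genes were. None was lower in chondrocyte-like or Pln-Sncg-like cells either, against 11.9% and 16.3% of all genes. In all, 13 comparisons of a gene and a class were higher by 1.5-fold, and the median ratio of all genes lay between -0.05 and 0.05 in each class.

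In ligated carotid arteries the reference class was the cluster led by Sparcl1 and Tcap, with Myh11 at 34.6 and 33.0 and Acta2 at 170 and 178 per 10000. It is not the most contractile class by these genes, since remodelling-like cells had Myh11 at 41.98 and 34.6, Acta2 at 203 and 221, and Cnn1 at 16.0 and 16.4 against 10.7 and 10.1. De-differentiated-like cells had less, with Myh11 at 17.97 and 13.2. The plaque and ligation libraries were counted with different versions of the counting program, so the levels stand side by side and are not compared. C1ra was at 0.399 in control and 0.307 in Trf2T188A in this cluster, at 0.654 and 0.716 in remodelling-like cells, named from genes such as Eln and Postn, and at 0.988 and 1.06 in de-differentiated-like cells, named from genes such as Lum and Dcn. C1s1 went with it, at 0.393 and 0.309, 0.79 and 0.849, and 0.76 and 0.902. Over 11 points of classes and libraries, the Pearson correlation of C1ra with C1s1 was 0.92. Serping1 was alike in these classes, at 1.41 and 1.31, 1.2 and 1.35, and 1.21 and 1.2. In interferon-like cells, 115 and 62 with genes such as Ifit3 and Isg15, it was at 3.41 (3.08–3.76) and 1.78 (1.5–2.1).

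C4b was low in the Sparcl1-Tcap cluster, at 0.0287 and 0.0365, and higher in remodelling-like cells, at 0.119 (0.105–0.136) and 0.262 (0.242–0.284), and de-differentiated-like cells, at 0.199 and 0.307. Endothelial-like cells had C4b at 0.199 from 16 UMIs and 0.139 from 15 UMIs, which is above control remodelling-like cells in level with overlapping intervals. C3 was at 0.0189 and 0.0229 in the Sparcl1-Tcap cluster and at 0.0178 and 0.0271 in remodelling-like cells. At 5000 UMIs a cell it was found in 0.994% and 1.19% of Sparcl1-Tcap cells, against 5.26% and 1.56% of endothelial-like cells. The share that free RNA gives to these values was not tested. De-differentiated-like cells had C3 at 0.23 and 0.223. Interferon-like cells of control arteries had 0.407 from 47 UMIs, 18 of them in 1 cell, and those of Trf2T188A arteries had 2 UMIs. Cfb had 1 UMI in each ligation library. Past 2-fold over the Sparcl1-Tcap cluster in both libraries were 1 of 3 genes in de-differentiated-like cells (C1ra) against 2.81% of all genes, 1 of 3 in remodelling-like cells (C1s1) against 1.29% and 1 of 3 in interferon-like cells (C1ra) against 2.22%. C4b in all of these classes and C3 in de-differentiated-like cells also passed but are not counted, because they reached 10% of cells in the higher class alone. None was lower past 2-fold in de-differentiated-like, remodelling-like or interferon-like cells, where 1.59%, 1.69% and 0.293% of all genes were.

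**Figure D4:**
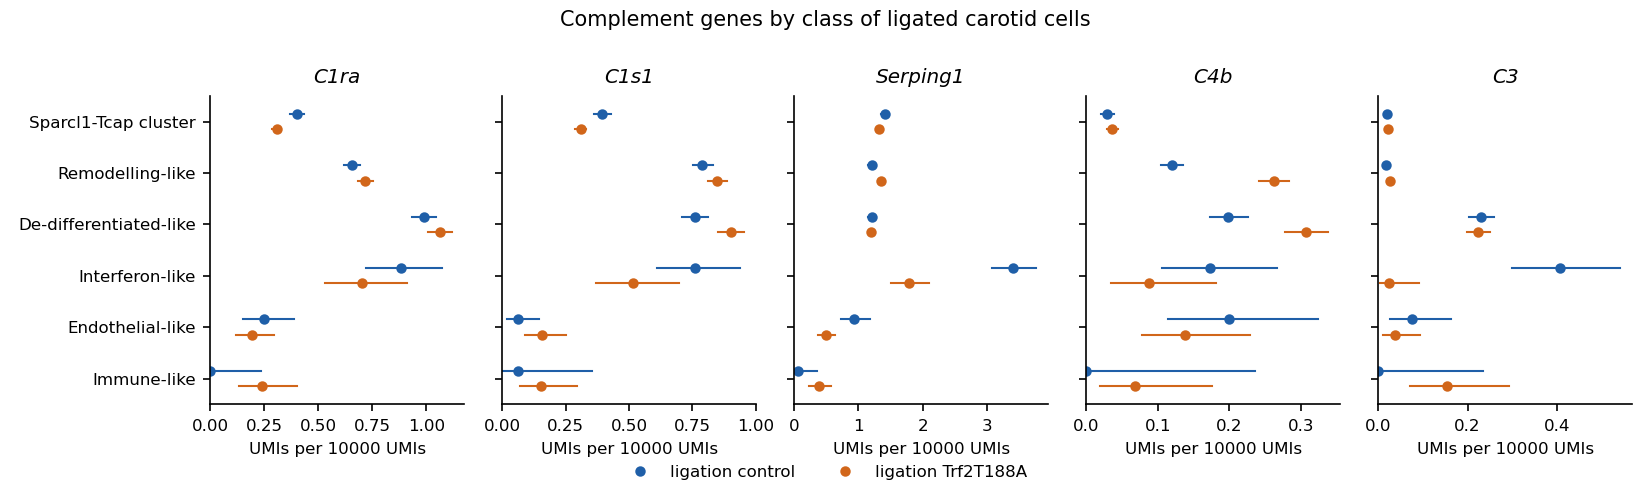
Levels of complement genes in cells of ligated carotid arteries, as UMIs per 10000 UMIs on linear axes that differ between genes, by class and genotype; points are 1 library each and lines are exact Poisson 95% intervals. C1ra and C1s1 are lowest among smooth muscle classes in the Sparcl1-Tcap cluster, and Serping1 stands out in control interferon-like cells at 3.41.

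Between the ligation genotypes C4b had a higher level in Trf2T188A in the remodelling-like and de-differentiated-like classes. Its log2 ratio of Trf2T188A over control was 1.14 (0.92 to 1.36) in remodelling-like cells and 0.63 (0.39 to 0.87) in de-differentiated-like cells, where it was 1 of 5 genes higher by 1.5-fold against 1.15% of all genes. In remodelling-like cells C4b reached 10% of cells in Trf2T188A alone, at 17.2% against 7.27%, and is not counted. Without it 0 of 3 genes were higher there against 1.7% of all genes and 0 of 3 lower against 0.623%. Over all cells its ratio was 0.59, and without it 0 of 3 were higher against 0.897%. In the Sparcl1-Tcap cluster 0 of 3 genes passed in either direction, against 0.782% higher and 0.229% lower of all genes, and C1ra and C1s1 had ratios of -0.38 and -0.35. In interferon-like cells Serping1 was lower at -0.94 (-1.22 to -0.66), 1 of 3 genes against 10.7% of all genes, and C4b, which reached 10% of cells in control alone, was at -0.98 (-2.46 to 0.32, from 20 and 7 UMIs). C3 there went from 47 UMIs to 2, without reaching 10% of cells in either library. The immune list differed between the libraries in that class. It was at 4.32 per 10000 in control, from 499 UMIs in 28 cells and with 7 of 10 markers at 0 (Lyz2, Tyrobp, Fcer1g, Ctss, Lcp1, Ms4a7 and Laptm5), and at 0.0125 in Trf2T188A, from 1 UMI. In cells without a UMI of that list the ratios were -0.40 for C4b and -0.45 for Serping1, under 1.5-fold.

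Of 33 other complement genes, 32 are listed in plaques and 6 were found in at least 10% of the cells of a smooth muscle class. They include C1rl, Cd55, Cd59a, Cr1l and Clu, most of them regulators on cells or in fluid. In acute-phase-like cells 3 of 6 were higher than in contractile-like cells. Clu, encoding clusterin, was at 10.9 and 13.4 in contractile-like cells and at 31.1 and 36.6 in acute-phase-like cells, and Cd55, encoding a membrane regulator, at 0.0139 and 0.0201 and at 0.341 and 0.311. In chondrocyte-like cells Cd59a was lower than in contractile-like cells, as Serping1 was, and Clu was at 12.0 in ApoE-/- and 32.8 in Trf2T188A/ApoE-/-. In ligated arteries 30 of the 33 are listed and 5 were found in at least 10% of a smooth muscle class. None of the 3 genes of C1q and none of 7 complement receptor genes reached 10% of cells in a smooth muscle class.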

How the data were processed

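The data are single-cell RNA-seq of plaque cells and of ligated carotid arteries, with 1 library per genotype in each experiment. The deposited signal is each gene's UMIs divided by the cell's total and multiplied by 10000, as the authors computed it after alignment to GRCm38. For plaques they kept clusters with the Confetti reporter. Per the submitters' processing notes, plaque reads were processed with Cell Ranger 7.0.0 and Seurat 4.3.0, and ligation reads with Cell Ranger 6.1.2 and Seurat 3.2.1. These versions can differ in counting intronic reads. Divided by the value of 1 UMI in the same cell, 100% of values came out whole (tolerance 0.01), so UMI counts were recovered. Plaque libraries list 31765 genes and ligation libraries were joined over 29459.

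Cells were clustered with R 4.3.3, Seurat 5.3.0 and Matrix 1.6.5 on 2000 variable genes without 40 complement genes, with 18 (plaque) and 17 (ligation) principal components and resolutions of 0.9 and 0.2, which gave 12 and 6 clusters. The limits for a class name were set after the data were seen. No ligation cluster took the contractile-like name, so the Sparcl1-Tcap cluster, for which the contractile list was the nearest but with 0 markers past the limit, replaced it as reference, a change from the plan. Complement genes that reached 10% of cells only on the higher side of a comparison are left out of the counts in the report. This choice was made after seeing the data, and the shares of all genes were not filtered in this way. Scrublet marked under 0.5% of cells as doublets, too few for a working threshold, so doublets were not removed and leaving out the 5% highest Scrublet scores was an alternative. No cell was removed. Thinning to 8000 UMIs left out 92 ApoE-/- and 122 Trf2T188A/ApoE-/- cells, and thinning to 5000 left out 325 control and 154 Trf2T188A cells.

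Levels, folds of at least 2 between classes and of at least 1.5 between genotypes, and exact 95% intervals were computed with scipy 1.17.1, numpy 2.4.6 and pandas 2.3.3 in Python 3.11.15, and drawn with matplotlib 3.10.9 (Scrublet ran in scanpy 1.11.5 with anndata 0.12.19). The ratios and their intervals were tested on simulated counts that held counting error only. The text names the 7 complement genes, other complement genes past a fold or named as a group, and the 3 genes most like each. The members and lists were chosen with earlier results of these data known. Gene positions are from GENCODE vM21 on GRCm38. Upstream windows of 4 of the 7 genes were in the RefSeq table, and those of C4b, Cfb and Serping1 were not used here. Alternatives were other clusterings, thinning, filters on cells and doublets, and other measures of the mean. Those without the cell with the most UMIs of the gene and without ligation cells holding an immune marker UMI were added after seeing the data. Results of some genes are not reported here.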

Additional observations from a re-analysis of the deposited data

Results flagged for a closer look

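For 2 genes the ratio of the genotypes passed 1.5-fold in opposite directions in smooth muscle classes of the same experiment. In ligated arteries C4b was higher in Trf2T188A in remodelling-like (log2 ratio 1.14) and de-differentiated-like cells (0.63) and lower in interferon-like cells (-0.98, with an interval of -2.46 to 0.32). In plaques Serping1 was lower in Trf2T188A/ApoE-/- acute-phase-like cells (-0.60) and higher in chondrocyte-like cells (1.61). Serping1 was at -0.15 in thinned acute-phase-like cells. In chondrocyte-like cells it was at 0.59 without the highest cell of each library and at 0.13 by the difference of mean logs. C4b was at -0.40 in interferon-like cells without an immune marker UMI. With 1 library per genotype, the difference between the classes was not tested for either gene.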

How the results depend on the processing

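No paired analysis was possible because each genotype has 1 library in each experiment, and no replicate could be left out. Of 761 alternative values of genotype ratios, 647 stayed within the counting interval and 109 left it. The other 5 changed sign from a ratio past the fold. Of 1330 values of ratios between classes 926, 401 and 3 did so. Changes of sign in ratios under a fold were not counted apart and are among the rest. Pseudocount alternatives shrink these ratios by construction, since most levels are below 1 per 10000. The counts of comparisons past a fold include genes that reached 10% of cells only on the higher side, namely 1 of 23 between plaque classes, 4 of 7 between ligation classes and 1 of 2 between ligation genotypes. The 23 plaque comparisons higher than contractile-like cells were 10 at the lower resolution (which formed no acute-phase-like or de-differentiated-like class), 15 after reciprocal PCA integration, 9 with the mean per cell and a pseudocount of 1, and 4 by the difference of mean logs. The 5 in acute-phase-like cells were 3 under both of the last. The 13 plaque genotype comparisons were 3 and 2 under these, and the 4 in chondrocyte-like cells were 1 and 1, and 2 in cells with a reporter UMI. In ligated arteries the 7 comparisons between classes were 0 at the lower resolution, 3 with a pseudocount of 0.1, and 0 with a pseudocount of 1 and by mean logs, as were the 3 in de-differentiated-like cells. The 2 genotype comparisons were 1 at the lower resolution, after integration, without the highest Scrublet scores, with a pseudocount of 0.1 and without cells holding an immune marker UMI, and 0 with a pseudocount of 1 and by mean logs, as was the 1 in remodelling-like cells. Among ratios past a fold, the genotype ratio of C3 in immediate-early-like cells changed sign (-0.0069 with complement genes among the variable genes, -0.80 at the lower resolution). So did that of C4b in Pln-Sncg-like cells (-0.55 in thinned cells). That of C1s1 in endothelial-like cells changed too (-0.50 without the highest Scrublet scores, -0.23 without cells holding an immune marker UMI). Between classes, C1ra in immediate-early-like over contractile-like ApoE-/- cells changed sign (-0.13 at the lower resolution). C4b did so in Trf2T188A interferon-like cells over the reference (-0.27 at the lower resolution) and in endothelial-like cells (-0.081 without cells holding an immune marker UMI). The cause of these changes was not tested. Between the lowest and highest alternative, the C3 ratio was 1.15 and 1.77 in chondrocyte-like cells, 0.09 and 1.34 in contractile-like cells and -0.09 and 0.53 in acute-phase-like cells. Depth limits Cfb, C7 and ligation C3, whose levels rest on few UMIs.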
